A study of Mus musculus with 6 samples.

Results

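MHC class I antigen presentation was described here through 10 genes, chosen by symbol from the 18437 genes of the deposited table. They are the class I heavy chains H2-K1 and H2-D1, their partner B2m, the peptide loading genes Tap1, Tap2 and Tapbp, the immunoproteasome subunits Psmb8, Psmb9 and Psmb10, and the class I transactivator Nlrc5. All 10 were in the table, and all 10 passed the filter on low values. The 6 RNA sequencing libraries were made from islets of Langerhans, the endocrine tissue of the pancreas, of male mice at 30 weeks of age. The 3 wild type libraries came from Sec16b+/+ mice and the 3 knockout libraries from Sec16b-/- mice, so the design bears on islet transcripts in the absence of Sec16b, a gene of endoplasmic reticulum (ER) exit sites. The labels do not give the strain, the design of the Sec16b allele, any cell type restriction of the deletion, or whether each library is a separate animal. The p-values therefore speak of the spread among these libraries, which may be technical. Values of a genotype are listed in the order of replicates 1, 2 and 3 throughout, as normalized reads, which are reads divided by a library's size factor.

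Class I molecules carry short peptides from proteins made inside the cell to the cell surface, where CD8 T cells read them. Proteasomes cut the proteins, the TAP transporter moves the peptides into the ER, and tapasin holds an empty heavy chain with its light chain beta-2 microglobulin at TAP until a peptide fits. Interferon gamma raises most genes of the pathway through Irf1 among other factors, and Nlrc5 is recruited to class I promoters with the RFX and NF-Y factors. In islets the pathway is best known from autoimmune diabetes, in which beta cells with raised class I are targets of CD8 T cells.

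The RefSeq promoters of 4 members are shown because they hold letters through which this control is known to run. Whether these letters bear on the members' levels in these libraries was not tested. RefSeq (GRCm38.p6) gave windows of 250 bases before and 50 after a start for 8 of the 10 members, all but Tap2 and Nlrc5. Capitals mark matches on either strand to any of 5 motifs in the 250 bases before the start. The motifs were the interferon regulatory factor core AANNGAAA, the gamma-activated site TTCNNNGAA, an NF-kB form (GGGNN with TTNCC directly after it), the X2 or CRE half-site TGACG, and the Y box CCAAT, which reads ATTGG on the opposite strand. No 2 matches overlapped in the stretches shown.
H2-K1 (chr17:34000334-34000583, minus strand): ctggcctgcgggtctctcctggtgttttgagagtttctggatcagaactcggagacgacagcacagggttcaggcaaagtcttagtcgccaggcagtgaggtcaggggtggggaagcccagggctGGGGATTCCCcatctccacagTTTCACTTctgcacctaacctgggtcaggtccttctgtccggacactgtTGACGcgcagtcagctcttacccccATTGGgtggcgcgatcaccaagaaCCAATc
H2-D1 (chr17:35262844-35263093, plus strand): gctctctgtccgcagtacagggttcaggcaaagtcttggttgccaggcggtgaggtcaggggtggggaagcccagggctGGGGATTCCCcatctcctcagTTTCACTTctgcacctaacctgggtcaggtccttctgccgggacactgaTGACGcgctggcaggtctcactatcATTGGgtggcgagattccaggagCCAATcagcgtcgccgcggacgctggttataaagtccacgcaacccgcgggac
B2m (chr2:122147437-122147686, plus strand): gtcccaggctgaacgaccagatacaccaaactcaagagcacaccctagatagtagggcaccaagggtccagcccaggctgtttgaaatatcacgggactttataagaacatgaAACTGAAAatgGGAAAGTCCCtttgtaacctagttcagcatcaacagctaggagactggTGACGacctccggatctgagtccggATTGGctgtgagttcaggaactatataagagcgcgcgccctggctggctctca
Tap1 (chr17:34187306-34187555, plus strand): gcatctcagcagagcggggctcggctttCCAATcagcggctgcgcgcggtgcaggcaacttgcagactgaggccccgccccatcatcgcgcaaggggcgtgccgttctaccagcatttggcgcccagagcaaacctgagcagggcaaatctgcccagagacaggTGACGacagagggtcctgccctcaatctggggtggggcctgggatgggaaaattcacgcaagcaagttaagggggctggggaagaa

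H2-K1, H2-D1 and B2m each held an interferon regulatory factor core, found in 23.9% of the 32544 distinct promoter windows, and an NF-kB form, found in 4.78%. The same 3 windows held TGACG followed, 20 bases on, by ATTGG, a spacing noticed in these sequences and then counted in 31 of 32544 windows (0.0953%). The H2-K1 and H2-D1 stretches were identical at 172 of 192 aligned positions (89.6%). TGACG and CCAAT stood together in 5 of 8 members' windows, those 3 and the pair Tap1 and Psmb9, against 7.76% of all windows. Tap1 and Psmb9 are read in opposite directions from starts 225 bases apart, so their windows overlap and share these matches. A gamma-activated site was matched in Psmb8 alone of the 8 (8.33% of all windows), Tapbp held only CCAAT, and Psmb10 held none of the 5. These matches describe letters in a window and were not measured as bound sites.

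The islet identity of the libraries was checked against fixed markers. All 8 beta cell markers were tested and took 9.30% to 15.0% of reads, and libraries held 22071895 to 26806787 recovered reads. Sec16b had 1655, 773 and 1786 normalized reads for wild type against 553, 433 and 750 for knockout. The genotypes did not overlap, and the log2 fold change of −1.22 (SE 0.35) missed the threshold of limma (adjusted p = 0.993). Acinar markers, from the enzyme-secreting exocrine pancreas, took 0.607% to 13.5% of reads, highest in knockout replicate 1 and lowest in knockout replicate 3. In islet tissue a gene's level can follow both the number of cells of a type and the RNA per cell, and these cannot be told apart here.

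None of the 10 genes differed between genotypes beyond the spread of their libraries. Limma on log2(value + 1) called 0 of 10, where it called 0 of 16042 genes tested (0%), at adjusted p of 0.993 to 0.997 for the members. At an unadjusted p under 0.05 it found 0 members, beside 494 of all genes (3.08%). The quasi-likelihood test of edgeR on recovered reads also called 0 members and 0 genes (0%), with 509 genes at an unadjusted p under 0.05 (3.17%). DESeq2 called 0 members and 12 of 10555 genes with an adjusted p (0.114%), with 603 at an unadjusted p under 0.05 (3.28%). In all 10 members the values of the genotypes overlapped, where 9.08% of genes tested had no overlap. The knockout mean log2 value was higher in 7 members and lower in 3, and 49.4% of all genes were higher. The members' median log2 fold change was 0.07, beside −0.0030 over all genes tested.

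**Figure D1:**
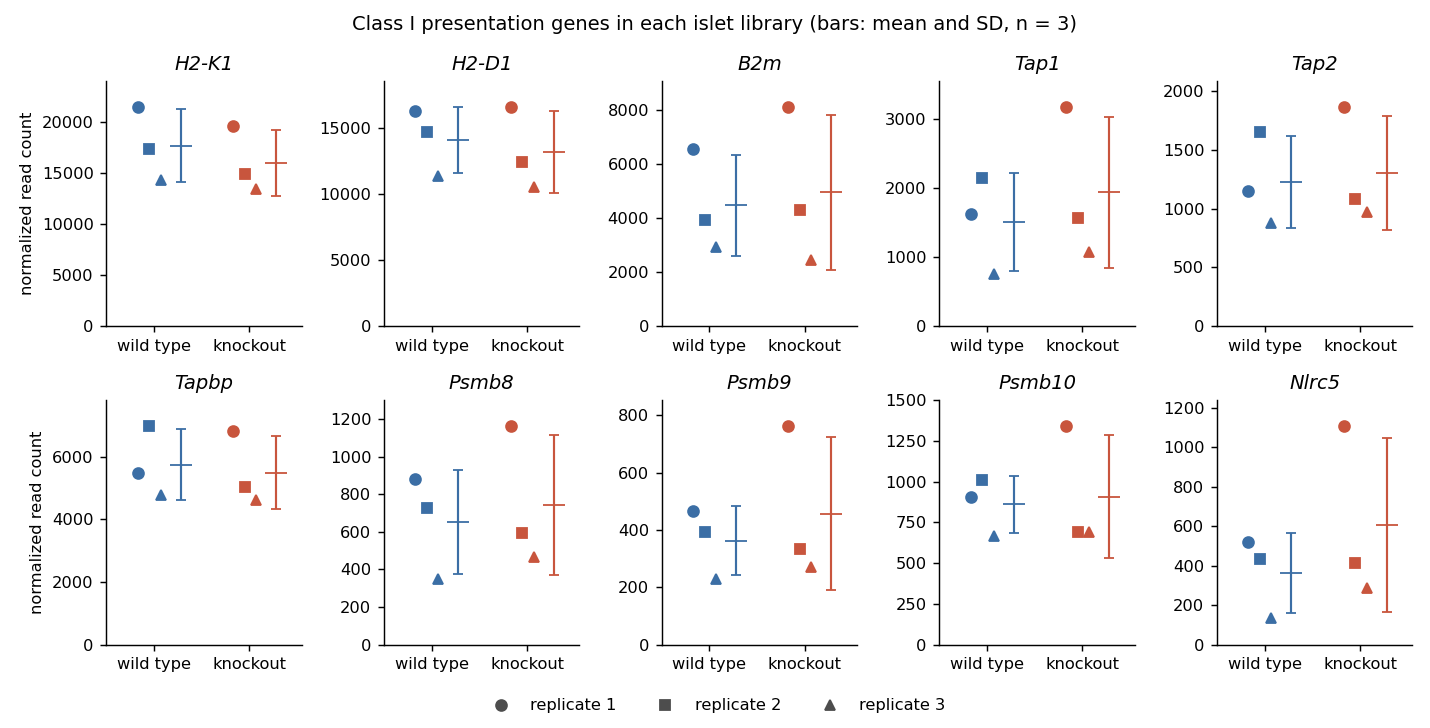
Normalized read counts (y axis, from 0) of the 10 genes in wild type and knockout libraries, with symbols for the replicate number and bars for the mean and SD of 3 libraries. The genotypes overlap in every panel, wild type replicate 3 is the lowest wild type library and knockout replicate 1 the highest knockout library in all 10.

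The heavy chains were abundant and varied least with Tapbp. H2-K1, a classical heavy chain, had 21490, 17378 and 14316 normalized reads in the wild type libraries against 19638, 14925 and 13433 for the knockouts. The highest value came from wild type replicate 1 and the next from knockout replicate 1. Wild type averaged 17728 ± 3600 (SD, n = 3) against 15999 ± 3239 (SD, n = 3) for knockout, a log2 fold change of −0.15 (SE 0.21, 95% confidence interval −0.64 to 0.34). H2-D1, the other classical heavy chain measured, had 16220, 14636 and 11366 normalized reads in the wild type libraries against 16530, 12408 and 10506 for the knockouts. Both its highest and its lowest value were knockout libraries, and its log2 fold change was −0.11 (SE 0.21, interval −0.61 to 0.39). Some reads of these 2 genes cannot be assigned with certainty, since class I genes are near copies of each other. In GENCODE M21 transcripts, 9.63% of the distinct 50-base stretches of H2-K1 and 12.8% of those of H2-D1 also occurred in transcripts of other genes, and 0.957% and 3.59% of the 100-base stretches did. The sources used here give neither the class I haplotype nor the read length. For B2m, Psmb9, Psmb10 and Nlrc5 that share was 0% at both lengths, and for Tap1, Tap2, Tapbp and Psmb8 it ran from 0.227% to 2.87% at 50 bases.

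B2m, the light chain that pairs with the classical heavy chains, varied more between libraries than H2-K1 and H2-D1. Wild type libraries held 6550, 3923 and 2929 normalized reads of B2m, and knockout libraries 8104, 4308 and 2445. Knockout replicates 1 and 3 were the highest and the lowest of the 6, with every wild type library between them. The highest value was 3.31-fold the lowest, against 1.60-fold for H2-K1 and 1.57-fold for H2-D1. The log2 fold change was 0.06 (SE 0.47), with a wide interval from −1.05 to 1.17.

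Of the peptide loading genes, Tap1 and Tap2 encode the paired chains of the transporter and Tapbp encodes tapasin. Tap1 had 1617, 2145 and 749 normalized reads in the wild type libraries against 3164, 1562 and 1074 for the knockouts. Knockout replicate 1 stood above all other libraries and wild type replicate 3 below all others, a 4.22-fold range. Its log2 fold change was 0.34 (SE 0.50, interval −0.84 to 1.53). Tap2 had 1148, 1653 and 880 normalized reads in the wild type libraries against 1865, 1082 and 971 for the knockouts. Its highest and lowest libraries were those of Tap1, over a 2.12-fold range, at a log2 fold change of 0.08 (SE 0.31, interval −0.66 to 0.81). Tapbp had 5471, 6992 and 4774 normalized reads in the wild type libraries against 6813, 5027 and 4629 for the knockouts. Wild type replicate 2 was highest here, the range was 1.51-fold, and the log2 fold change was −0.07 (SE 0.19, interval −0.53 to 0.39).

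Psmb8, Psmb9 and Psmb10 encode the inducible catalytic subunits that take the places of Psmb5, Psmb6 and Psmb7 in the immunoproteasome. Psmb8 had 884, 726 and 349 normalized reads in the wild type libraries against 1166, 597 and 464 for the knockouts. Psmb9 had 466, 391 and 229 normalized reads against 763, 334 and 272 for the knockouts. Both genes were highest in knockout replicate 1 and lowest in wild type replicate 3, a 3.34-fold and a 3.33-fold range. Psmb10 had 906, 1008 and 667 normalized reads against 1342, 688 and 693 for the knockouts, a 2.01-fold range with the same libraries at its ends. The log2 fold change was 0.18 for Psmb8 (SE 0.44, interval −0.88 to 1.23). It was 0.24 for Psmb9 (SE 0.43, interval −0.78 to 1.27) and 0.02 for Psmb10 (SE 0.29, interval −0.67 to 0.72).

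The constitutive subunits had narrower ranges over the 6 libraries than the inducible ones, at 1.41-fold for Psmb5, 1.27-fold for Psmb6 and 1.32-fold for Psmb7. Psmb5 had a log2 fold change of −0.21 (SE 0.12), Psmb6 of −0.12 (SE 0.12) and Psmb7 of −0.11 (SE 0.13), none past the threshold (adjusted p = 0.993 for each in limma). In the wild type libraries the ratio of Psmb8 to Psmb5 reads was 0.682, 0.654 and 0.354, against 1.18, 0.651 and 0.460 for the knockouts. Knockout replicate 1 was the only library with more Psmb8 than Psmb5 reads, a comparison of reads that is not corrected for transcript length. The log2 ratio averaged −0.89 ± 0.53 (SD, n = 3) for wild type against −0.50 ± 0.69 (SD, n = 3) for knockout, a difference of 0.39 (two-sided exact permutation p = 0.6). For Psmb9 to Psmb6 the difference was 0.37 (exact permutation p = 0.5) and for Psmb10 to Psmb7 it was 0.13 (exact permutation p = 0.9). Adjusted over the 3 ratios p was 0.9 for each, and 3 libraries against 3 cannot give a p below 0.1. Without knockout replicate 1 the 3 differences became 0.02, 0.00 and −0.13.

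**Figure D2:**
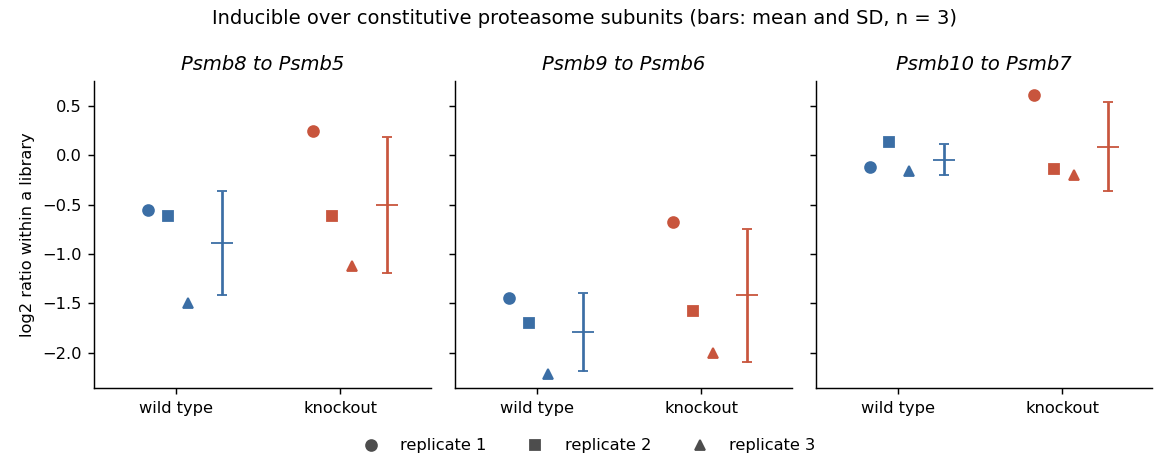
Log2 ratio of each inducible proteasome subunit to its constitutive counterpart within a library (y axis), for 3 wild type and 3 knockout libraries, with bars for the mean and SD. Knockout replicate 1 is the highest library in all 3 panels, and the other knockout libraries lie within the wild type range or just outside it.

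Nlrc5, the transactivator of class I genes, had the widest range of the 10. Wild type libraries held 522, 433 and 136 normalized reads of Nlrc5, and knockout libraries 1109, 415 and 289. Knockout replicate 1 held 8.14-fold the value of wild type replicate 3, while knockout replicates 2 and 3 lay between wild type libraries. Wild type averaged 364 ± 202 (SD, n = 3) against 604 ± 442 (SD, n = 3) for knockout. Its log2 fold change of 0.70 (SE 0.65, interval −0.84 to 2.24) was the largest of the 10, and it became 0.14 when knockout replicate 1 was left out and 0.10 when wild type replicate 3 was.

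Set per kilobase of GENCODE M21 exon sequence, an approximate length since the annotation used for counting is not given, the members fell into tiers. In wild type, H2-K1, H2-D1 and B2m had mean levels of 6034, 5457 and 5194 normalized reads per kb, and their libraries overlapped. Tapbp followed at 1584 per kb and did not overlap with its neighbours. Psmb10, Tap2, Tap1, Psmb8 and Psmb9 had wild type levels of 505, 325, 275, 193 and 99.0 per kb, where each overlapped with the next. Nlrc5 was lowest at 42.8 per kb in wild type, with its highest wild type library (61.5) just under the lowest of Psmb9 (62.7). In knockout Nlrc5 stood at 71.2 per kb and overlapped with Psmb9. The knockout order differed only among overlapping neighbours, with B2m first of the top 3 at 5759 per kb and Tap1 just above Tap2.

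The 10 genes shared one order of libraries to a large extent. Wild type replicate 3 was the lowest wild type library in 10 of 10 members, and in 32.4% of all genes tested. Knockout replicate 1 was the highest knockout library in 10 of 10, and in 37.0% of all genes. Both held together in 2705 of 16042 genes (16.9%). The members vary together and are not independent of each other, so these counts describe the libraries and were not tested. Spread within genotypes was wider than for most genes, with a median within-group SD of 0.58 on the log2 scale, beside 0.24 over all genes tested. H2-K1, H2-D1 and Tapbp had SDs of 0.29, 0.30 and 0.29, Tap1 had 0.79 and Nlrc5 1.02.

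Within the wild type group the members did not share the order of replicates 1 and 2. H2-K1, H2-D1, B2m, Psmb8, Psmb9 and Nlrc5 were higher in replicate 1 than in replicate 2, while Tap1, Tap2, Tapbp and Psmb10 were higher in replicate 2, as were 50.2% of all genes. The leukocyte markers summed to 39200 in wild type replicate 1 and 6331 in replicate 2, and 15 of the 16 tested were higher in replicate 1. Of the 25 regulators, 14 were higher in replicate 2 (56.0%), near the share of all genes, Irf1 and Stat2 among them. Of the 16 other heavy chains tested, 11 were higher in replicate 1, and H2-T23, H2-Q2, H2-M2, Mr1 and Hfe were higher in replicate 2. H2-Q7, a nonclassical heavy chain named after its values were seen, had 1252, 192 and 180 normalized reads for wild type against 999, 531 and 177 for knockout. Whether leukocyte RNA has a part in these orders was not tested.

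**Figure D3:**
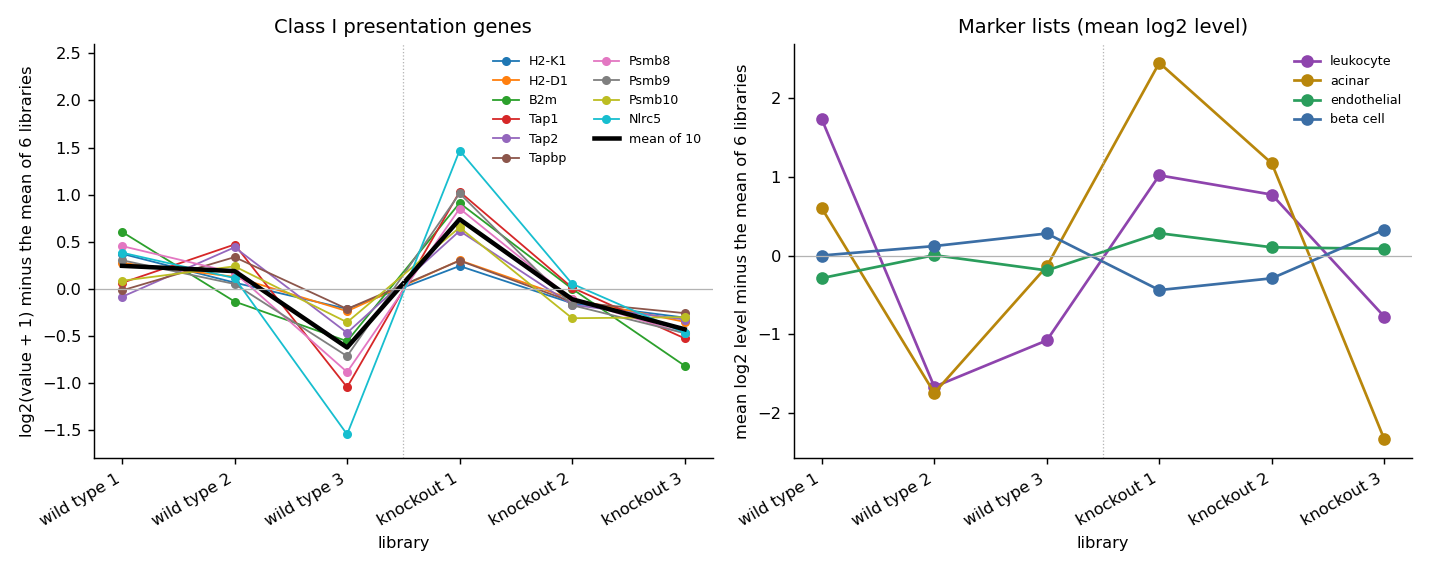
Left, log2(value + 1) of each member minus its mean over the 6 libraries (y axis) in each library (x axis), with the mean of the 10 in black. Right, the mean log2 level of 4 marker lists treated the same way, and lines join values of 1 gene or list without implying an order. The mean of the members is highest in knockout 1 (0.74) and lowest in wild type 3 (−0.62), while leukocyte markers peak in wild type 1 and acinar markers in knockout 1.

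Markers of other cells that carry class I moved between libraries too. Of 20 leukocyte markers 16 were tested, 12 higher and 4 lower in knockout. Higher and lower refer to mean log2 values here and for the other lists. The deposited table held 0 values at 0, so the lack of zeros among these markers says nothing about leukocytes. The T cell, B cell and NK cell markers Cd3e, Cd3d, Ms4a1 and Nkg7 had no row under these symbols in the deposited table. The 16 tested markers summed to values from 6331 to 39200 in wild type and from 7257 to 26010 in knockout libraries. Of the acinar markers 11 of 11 were tested and all 11 had higher means in knockout, with summed levels of 207600 to 1027000 in wild type and 133400 to 3655000 in knockout. The 10 endothelial markers were all tested, 9 higher and 1 lower, with sums of 9232 to 11350 in wild type and 11170 to 12000 in knockout. Among endocrine cells, all 8 beta cell markers had lower mean log2 values in knockout, at a median log2 fold change of −0.20. The unlogged mean of Mafa was higher in knockout (7711 against 7064 for wild type). The 7 other endocrine markers went 6 higher and 1 lower, at a median of 0.44, where 49.4% of all genes were higher. Limma called 0 of these markers. With the leukocyte level as a covariate the members' median log2 fold change was −0.03, with 4 higher and 6 lower. With the acinar level as covariate it was −0.03, with 5 in each direction, and limma called 0 members in both fits. What share of the class I reads came from such cells was not tested.

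The direction of the members as a group depended on single libraries. Without knockout replicate 1 the median log2 fold change was −0.22 and 9 of 10 members were lower, and without wild type replicate 3 it was −0.17, again with 9 lower. Leaving out knockout replicate 3 gave 0.36 with 9 higher, and 0.22, 0.23 and 0.18 resulted when wild type replicate 1, replicate 2 of wild type or replicate 2 of knockout was left out. Over the 6 fits H2-K1 ran from −0.30 to 0.00, and Nlrc5, at 0.10 to 1.11, was the only member that kept its sign in all of them. Limma called 0 members in each of these 6 fits.

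**Figure D4:**
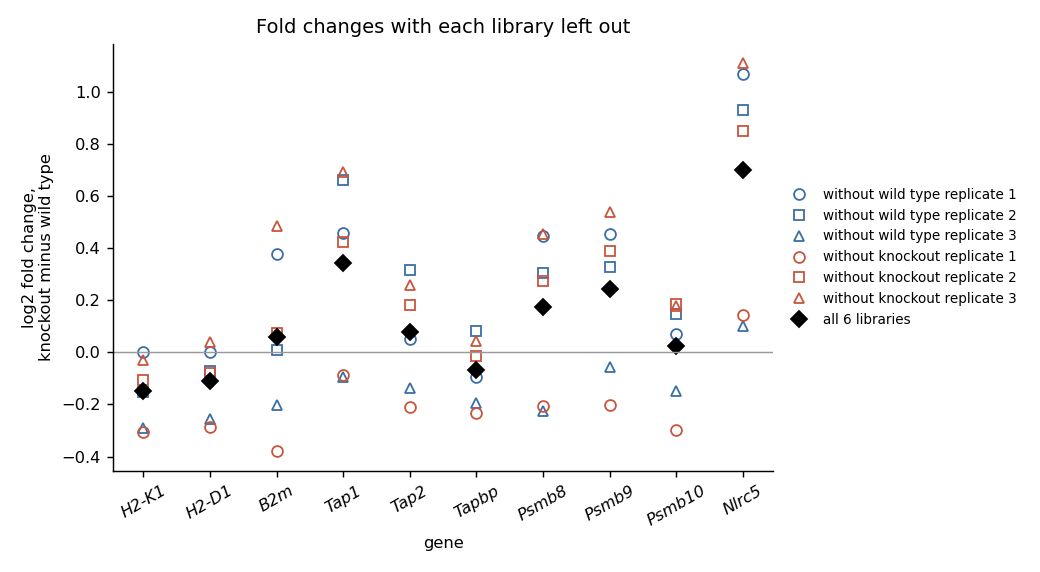
Log2 fold change, knockout minus wild type (y axis), of the 10 members (x axis) with all 6 libraries (black) and with each library left out (open symbols, blue for wild type and red for knockout). Points without knockout replicate 1 or without wild type replicate 3 lie below 0 for 9 of the 10 genes, Nlrc5 being the exception.

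Other class I and class I-like heavy chains also gave no call. Of 20 listed genes 16 were tested, 10 higher and 6 lower, with a median log2 fold change of 0.14 and 0 at an unadjusted p under 0.05. Hfe, a class I-like protein of iron sensing, had 280, 315 and 318 normalized reads for wild type against 326, 414 and 395 for knockout. Its genotypes did not overlap, as in 1 of the 16 genes, a share below the 9.08% of all genes, at a log2 fold change of 0.31 (SE 0.15, limma adjusted p = 0.993). Cd1d1, which presents lipids to NKT cells, had 29.1, 5.81 and 7.03 normalized reads for wild type against 51.5, 31.8 and 16.9 for knockout, where wild type replicate 1 lay inside the knockout range. Its log2 fold change was 1.41 (SE 0.69, limma adjusted p = 0.993).

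In the list of peptide loading, editing and trimming genes, 14 of 15 tested had lower means in the knockout libraries, beside 8120 of all 16042 genes tested. The list was drawn broadly and also holds Sec61b, Tmem127, Susd6 and Wwp2, which do not load or trim peptides. Susd6 was the gene that was higher in knockout. The median log2 fold change of the 15 was −0.12. At an unadjusted p under 0.05 limma found 494 of all genes (3.08%), 218 of them lower. Of the 15, 3 had an unadjusted p under 0.05, all lower, and 0 passed limma's adjustment. They were Calr and Pdia3, the calreticulin and ERp57 of the peptide loading complex, and Thop1, a cytosolic peptidase that destroys class I peptides. Calr had 34743, 37957 and 39401 normalized reads for wild type against 27093, 22352 and 24028 for knockout, a log2 fold change of −0.61 (SE 0.15). DESeq2 called it (adjusted p = 0.00711), while limma did not (adjusted p = 0.993). For Pdia3 it was −0.38 (SE 0.14), and both proteins also serve glycoprotein folding in general. Thop1 had 827, 841 and 773 normalized reads for wild type against 709, 707 and 631 for knockout, with no overlap and a log2 fold change of −0.25 (SE 0.10). Erap1, the ER aminopeptidase that trims class I peptides and named after its values were seen, had 2236, 2466 and 2070 normalized reads for wild type against 2058, 2004 and 1889 for knockout. Its groups did not overlap, by a margin of 2070 to 2058, and its log2 fold change was −0.18 (SE 0.10). This list had 4 of 15 genes with no overlap, beside 9.08% of all genes. Wild type replicate 3 was its lowest wild type library in 3 of 15 genes, beside 32.4% of all genes. Knockout replicate 1 was its highest knockout library in 8 of 15, beside 37.0% of all genes.

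Constitutive proteasome counterparts and proteasome activator genes numbered 7 tested of 8, with 1 higher, 6 lower, a median log2 fold change of −0.07 and 0 calls. Wild type replicate 3 was the lowest wild type library in 7 of these 7, as in the members, beside 32.4% of all genes. Knockout replicate 1 was their highest knockout library in 6 of 7, beside 37.0% of all genes. For the 16 other heavy chains tested these counts were 10 and 12, and for the 25 regulators 13 and 17. Of the 25 regulators, all tested, 19 were higher and 6 lower in knockout, with a median of 0.13, 0 at an unadjusted p under 0.05 and 0 calls. Irf1, the interferon-induced activator of class I promoters, had 1050, 1642 and 1111 normalized reads for wild type against 3191, 1726 and 1288 for knockout. Knockout replicate 1 stood above the rest, as in 8 of the 10 members, and the log2 fold change was 0.63 (SE 0.34), or 0.26 when that library was left out. Stat2, of type I interferon signalling and named after its values were seen, was at 0.80 (SE 0.45) on the same scale, or 0.36 when knockout replicate 1 was left out. Socs1, an inhibitor of interferon signalling, had 0.38 (SE 0.37), or 0.03 when wild type replicate 3 was left out and 0.20 when knockout replicate 1 was. The RFX subunits Rfx5 and Rfxap, through which Nlrc5 reaches the X box, had 0.22 (SE 0.19) and −0.20 (SE 0.11). Rfxap had 548, 487 and 541 normalized reads for wild type against 431, 463 and 479 for knockout. It and Nfya, an NF-Y subunit named after its values were seen, were the 2 of 25 regulators with no overlap between genotypes, which is near the 9.08% of all genes. For each of these regulators limma's adjusted p was 0.993.

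**Figure D5:**
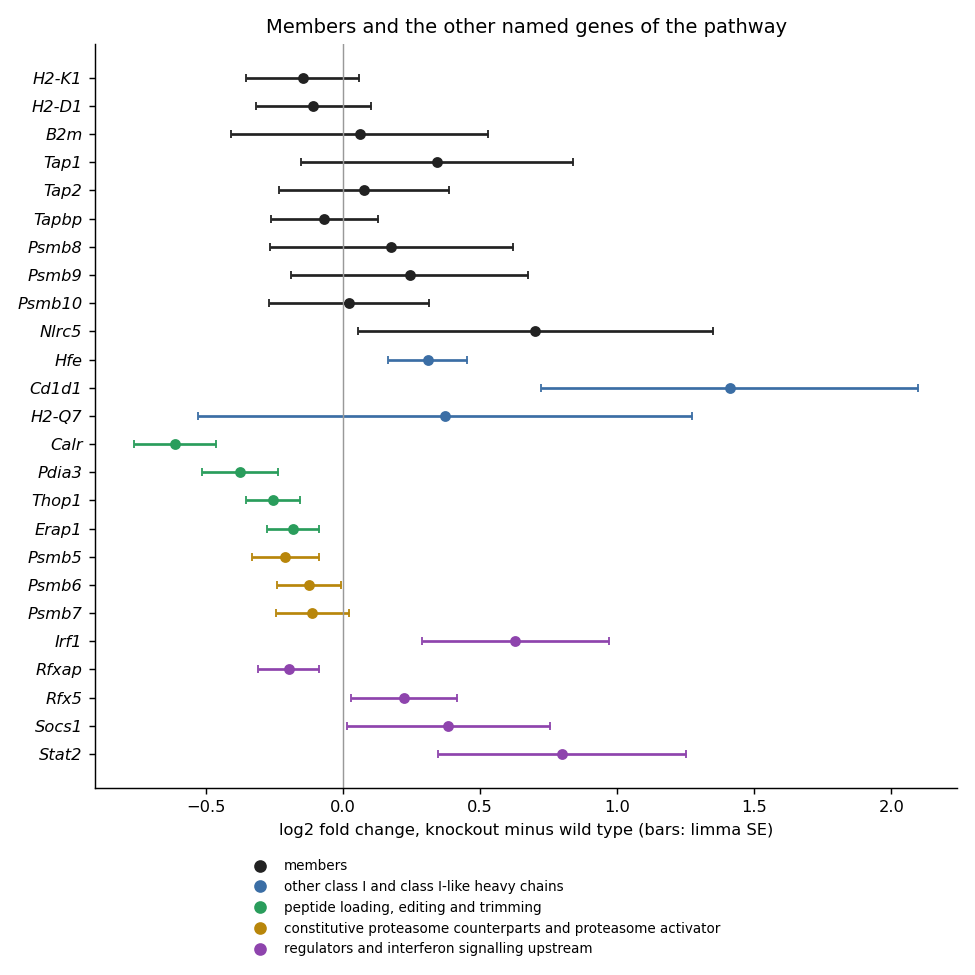
Log2 fold change, knockout minus wild type (x axis), with limma's SE as bars, for the 10 members (black) and the other genes named, coloured by list. All 4 named genes of peptide loading and trimming lie below 0, from −0.61 to −0.18. They were named for an unadjusted p under 0.05 in limma or after their values were seen, so this placing follows in part from the choice. The members spread from −0.15 to 0.70 with SEs up to 0.65.

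The genes whose library pattern lay closest to the mean of the members were found by the root mean square difference of centred log2 values over the 6 libraries. In order they were Tnf, Rps4x-ps, Tmem47, Arhgap10, St8sia6, Smox, Ethe1, Ctsz, Pml and Ddr2, at differences from 0.08 to 0.13. The members themselves lay 0.14 (Psmb9) to 0.49 (Nlrc5) from that mean. These 10 genes were picked as the closest of all tested genes outside the members, so lying closer than any member follows from the choice. Rps4x-ps held only 7 to 13 reads per library. Tnf, which encodes the cytokine tumour necrosis factor, had only 49.1, 52.3 and 28.1 normalized reads for wild type against 65.0, 40.3 and 32.9 for knockout. Pml, of the nuclear bodies, had 1532, 1744 and 975 normalized reads against 2358, 1359 and 1299. Ctsz, a lysosomal protease, had 2708, 2374 and 1767 normalized reads against 3537, 2218 and 1633. Knockout replicate 1 was the highest library of all 6 in each of these 10 genes, and 9 of the 10 were lowest in wild type replicate 3, Ctsz being the exception. They were chosen for closeness to a mean profile with these libraries at its ends, so this order follows from the choice.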

How the data were processed

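RNA of mouse islets was sequenced in 6 libraries, 3 per genotype, grouped by their labels, which also name the table's columns. The aligner was HISAT2, per the submitters' processing notes, and the sources used here give no version, counter, genome build or strand setting. The authors deposited a normalized signal per gene and library. Within each library 100% of values were whole multiples of 1 step within 0.01 reads, as read counts scaled by a size factor are. In wild type replicate 1 and knockout replicate 3 the step was so near 1 that low values alone could not show it. A read was worth 0.879 to 1.23 units, and 0 values were at 0.

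The filter asked for 10 or more units in 3 or more libraries and kept 16042 of 18437 genes. The log2(value + 1) of knockout was set against wild type with limma 3.58.1 (R 4.3.3) with a mean-variance trend, two-sided, with Benjamini-Hochberg adjustment over all genes at 0.05. Fold changes on this scale understate the change of low genes. EdgeR 4.0.16 and DESeq2 1.42.0 on recovered reads were alternatives, beside other pseudocounts, filters, scalings and variance models, a replicate block, 2 marker covariates and leaving out each library. The code was tested on simulated data (5 runs, 16042 independent genes, 200 of them changed), where 33.5% of 2-fold and 75.5% of 4-fold changes were called, as were 46 of 77953 unchanged genes. Changed genes were drawn at random from all genes, whose median within-group SD was 0.24 on the log2 scale, against 0.58 for the members. These shares therefore do not tell how often such changes in the members would be called.

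The members and gene lists were chosen with earlier results of these data known. The genes named were the members, Sec16b, those of each list with an unadjusted p under 0.05 or else its 2 smallest p, 7 fixed genes, of which 1 is not reported here, and the 10 of closest pattern, predicted genes skipped. Promoter windows and gene names came from RefSeq (GRCm38.p6), and exon lengths and transcripts from GENCODE M21. No genome coordinates are given for the deposited values, since their build is not known.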

Additional observations from a re-analysis of the deposited data

How the results depend on the processing

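No class I member was called under any of 19 alternatives (lowest adjusted p = 0.743, Nlrc5 with limma array weights). The count over all genes stayed at 0 except with DESeq2, which called 12. Leave-one-out ranges of log2 fold changes that crossed 0 were −0.30 to 0.00 for H2-K1, −0.29 to 0.04 for H2-D1, −0.38 to 0.48 for B2m, −0.09 to 0.69 for Tap1, −0.21 to 0.32 for Tap2 and −0.23 to 0.08 for Tapbp. They were −0.22 to 0.46 for Psmb8, −0.20 to 0.54 for Psmb9, −0.30 to 0.19 for Psmb10, 0.00 to 0.36 for Rfx5 and −0.19 to 1.29 for H2-Q7. The log2 ratios ran from 0.00 to 0.66 (Psmb9 to Psmb6) and −0.13 to 0.28 (Psmb10 to Psmb7). Signs also turned with the leukocyte covariate for B2m (−0.21), Psmb8 (−0.02), Psmb10 (−0.04) and H2-Q7 (−0.27), with the acinar covariate for B2m (−0.21), Psmb10 (−0.07) and H2-Q7 (−0.13), and with array weights for Tap2 (−0.05) and Psmb10 (−0.12). The cause was not tested.

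The replicate numbers did not clearly pair the libraries: same-numbered deviations correlated across genes at 0.43, 0.004 and 0.365 for replicates 1, 2 and 3, and knockout replicate 2 correlated best with wild type replicate 1 (0.034). A replicate block in limma gave 0 calls and 864 genes (494 without the block) at an unadjusted p under 0.05, and the members' median log2 fold change stayed at 0.07. Nlrc5 then had an unadjusted p of 0.0419 and an adjusted p of 0.837. The members held 155 to 21438 reads per library, and the part of counting error in their spread was not tested. Among the other genes named, leave-one-out ranges that kept their sign were 0.26 to 0.92 for Irf1, 0.36 to 1.18 for Stat2 and 1.01 to 2.09 for Cd1d1. Those of Socs1, Psmb5, Psmb6 and Psmb7 were 0.03 to 0.60, −0.31 to −0.11, −0.21 to −0.06 and −0.23 to −0.03.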
